A study of Mus musculus with 2 samples.

Results

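Translation factors are the proteins that bring a ribosome to a messenger RNA, move it along and release it at the stop codon. The genes described here are those with a probe set annotated to exactly 1 symbol that begins with Eif, Eef, Gspt, Pabpc or Paip and a digit, or is Etf1. The rule found 57 genes, read by 79 probe sets, of the 8251 genes with such a probe set on the array, and each gene was represented by its brightest probe set. Polyadenylated RNA from testes of mice 10 days after birth was hybridised to 2 single-colour arrays, 1 for heterozygous Mili+/- and 1 for homozygous mutant Mili-/- animals. Mili (Piwil2) encodes a germline Piwi protein that binds small RNAs. The Mili+/- control also carries 1 mutant allele, and neither the strain nor the number of animals behind an array is stated in the sources used here. According to the labels, germ cells of the mutant stop early in meiotic prophase and dying cells appear on day 11, so the sampled age precedes them.

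Initiation begins when eIF2, loaded with GTP and the initiator tRNA, joins the small ribosomal subunit together with eIF1, eIF1A, eIF3 and eIF5. The eIF4 factors bind the cap and unwind the leader, poly(A) binding proteins bridge to the tail, eIF5B joins the large subunit, and eEF1A and eEF2 then drive elongation until eRF1 (Etf1) and eRF3 (Gspt1, Gspt2) end it. Kinases that phosphorylate eIF2 and proteins that sequester eIF4E turn the process down. Germ cells rely heavily on such control, because many of their transcripts are stored and translated later.

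All values below are deposited signal intensities, which have no unit. Signals of different probe sets depend on the probes and are not compared as levels. A difference is log2 of the Mili-/- signal minus log2 of the Mili+/- signal, after each array was centred on its median. Genes were compared where at least 1 array reached its own median signal (38.5 in Mili+/- and 41.5 in Mili-/-). This filter was passed by 5095 genes, and their median difference was -0.13, so a gene near -0.13 stood with most other genes. With 1 array a genotype no test across samples was possible, and every difference describes these 2 arrays. The one available error is the disagreement between probe sets of a gene, which holds no variation between animals or arrays. Its SD was 0.31 over 720 genes past the filter and 0.21 over 209 genes whose brighter array reached the 75th percentile.

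Of the 57 translation factor genes, 45 passed the filter and 12 did not. Eif2ak3 and Eif2s2 reached it on the Mili+/- array only, and a gene selected in that way had to be lower in Mili-/-. None reached it on the Mili-/- array only. Just inside the filter stood Eif2ak3, with signals of 38.8 in Mili+/- and 24.1 in Mili-/-. Just outside stood Eif2ak4, with 37.6 and 25.1. A further probe set, annotated to several symbols of which 1 matched, was left out by the rule. Its signals were 736 and 746.

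Cell type markers also differed between the arrays. Of 15 germ cell markers 12 were measured and 9 passed the filter, all with values below 0 and 8 of them below the median of all genes, with a median of -0.53. The summed signal of all 12 was 3410 in Mili+/- and 2817 in Mili-/-. Dazl was at 1342 and 1191, and Sycp3 was near 0 at 1.1 and 0.6. All 11 measured Sertoli cell markers passed, 8 of them above 0 and 3 below it. Their median was 0.14 and their summed signal 6177 and 7261. The 4 Leydig cell markers past the filter were all below 0, as were 68.9% of all genes past it. Of these 4 markers, 3 lay below the median of all genes, and their group median was -0.29. The Leydig cell markers Hsd3b6 (11.2 and 17.8) and Insl3 (13.2 and 18.5) were higher in Mili-/- but did not reach the filter. Of the 9 adipose and erythroid markers past the filter, 5 reached it on the Mili-/- array only and so had to be higher there. The 6 measured adipose markers summed to 249 and 478, and the 6 measured erythroid markers to 1520 and 2055. In whole testis RNA, fewer cells of a type and less RNA per cell cannot be told apart. The part of these differences in the translation factor values was not tested. Piwil2 had no probe set of its own here, so its transcript could not serve as a check of the genotypes.

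The translation factors were closely alike on the 2 arrays. No member past the filter differed by 2-fold in either direction, a size reached upward by 0.314% and downward by 0.53% of all genes past the filter. None was 1.5-fold higher in Mili-/-, against 2.47% of all genes, and Eif2a and Eif2ak3 were more than 1.5-fold lower, which is 2 of 45 against 5.04% of all genes. These shares lie near the background. The members ranged from -0.80 to 0.19 with a median of -0.18. Of the 45, 39 lay below 0, against 68.9% of all genes, and 27 lay below the median of all genes. The sign depended on the scaling. With the values as deposited, 28 of 45 were below 0 against 52.5% of all genes, and the median stood at -0.07 against -0.02. Relative to the median of all genes the members' median was lower by 0.05 with median centring and as deposited. These values are equal by construction, since centring shifts all genes by the same amount. After quantile normalization and after loess the members' median was lower by 0.06.

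**Figure D1:**
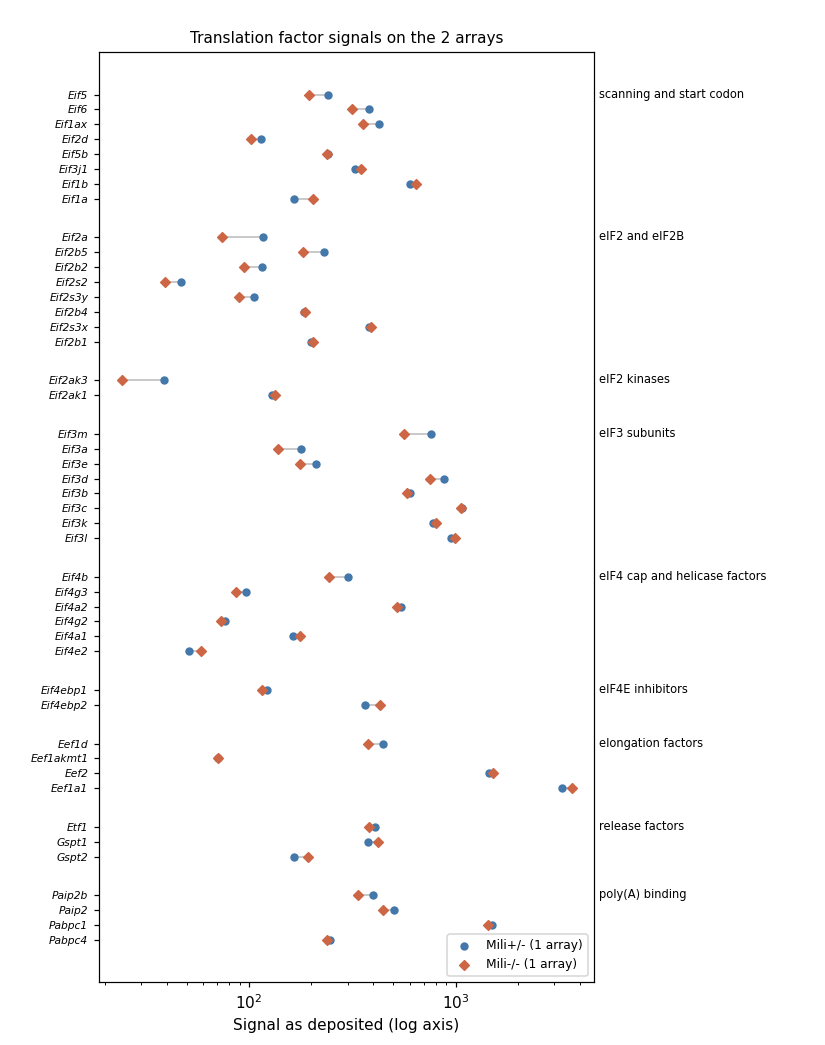
Deposited signals (log axis, no unit) of the 45 translation factor genes past the filter, grouped by role; circles are the Mili+/- array and diamonds the Mili-/- array, joined by a line for each gene. The markers overlap for most genes, and the widest gaps belong to Eif2a (117 and 73.8) and Eif2ak3 (38.8 and 24.1).

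Bright members lay with the other bright genes. Over the 34 members whose brighter array reached the 75th percentile (135 in Mili+/- and 132.5 in Mili-/-), the median difference was -0.14, against -0.13 for all 2786 such genes. Their SD was 0.19, against 0.25 for all such genes. The 11 dimmer members had a median of -0.28 and 9 of them lay below the median of all genes, while the 2309 dimmer genes in all had a median of -0.12. Of these 11, Eif2ak3 and Eif2s2 reached the filter on the Mili+/- array only and so had to be lower in Mili-/-. None reached it on the Mili-/- array only, as some of the 2309 genes did. Both members past 1.5-fold were among these 11 members. Of the 2309 dimmer genes, 157 were at least 1.5-fold lower and 104 at least 1.5-fold higher.

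**Figure D2:**
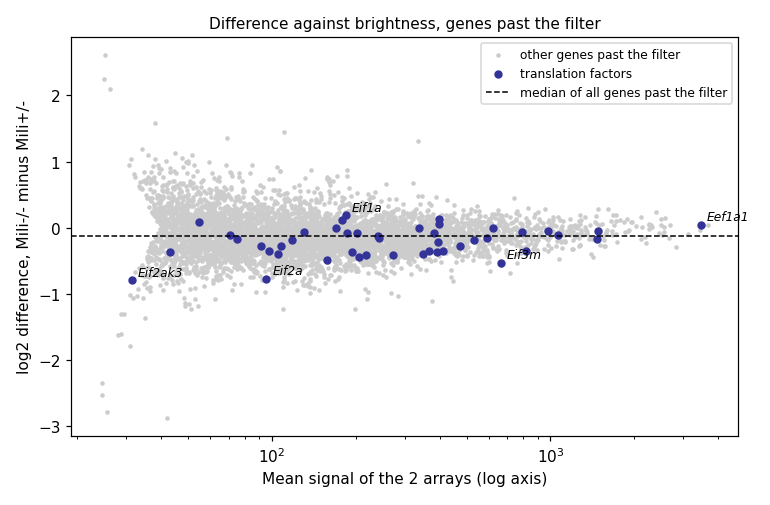
Log2 difference (Mili-/- minus Mili+/-) against the mean signal of both arrays (log axis) for genes past the filter; dark points are the 45 translation factors, grey points all other genes, and the dashed line the median of all genes at -0.13. Translation factors lie within the cloud of other genes, with Eif2ak3 and Eif2a in its lower part. Genes past the filter but under the 75th percentile, as these 2 are, reach down to -2.87.

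The annotated starts of these genes were looked at because many messenger RNAs of the translation machinery are known to begin with a terminal oligopyrimidine tract, through which mTORC1 and LARP1 control them. The tract was searched on the sense strand as a C at the first annotated base followed by 4 bases that are each C or T. RefSeq promoter sequences of GRCm38.p6 matched 44 of the 57 genes by symbol. The tract stood at the start of 2 of these 44, Eif2s3x and Eif3f, and of 3.01% of the 27025 genes with a start sequence. Anywhere between 5 bases before and 10 bases after the start it was held by 12 of 44 members and 21.2% of all genes. The X- and Y-linked copies of the eIF2 gamma subunit gene had differences that lay 0.27 apart. They and the genes of both main elongation factors are shown from 10 bases before the start to 15 after it. Capitals mark the part of the pyrimidine run that lies in the window searched. In Eif2s3x they mark the part of the run from the annotated start on.
Eif2s3x, chrX:94212637-94212661, minus strand: gagcattttcCTTTTCTCTCCgagc
Eif2s3y, chrY:1010585-1010609, plus strand: ggccacagccaCTTCCTTCTttcgt
Eef1a1, chr9:78481710-78481734, minus strand: ctccgCCCTCTTCCCgagggtgggg
Eef2, chr10:81176621-81176645, plus strand: aaggccgggcgttgacgtcagcggt
In Eif2s3x the annotated start is a C, and the run goes on for 11 bases counted from it. Pyrimidines also lie directly before that start, so the run itself begins further upstream. In the other sequences the first annotated base is not a C. Over all genes past the filter, the 122 with a tract at the start had a median difference of -0.14 and the 4025 without it -0.13. An annotated start can lie away from the base where transcription begins, and Eif2s3x was the sole member past the filter with a tract at the start, so the members could not be compared on this feature.

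The 8 measured genes of scanning and start codon choice had a median of -0.20, lower than all genes by 0.07, and lay on both sides of it. Eif5, whose product triggers GTP hydrolysis on eIF2, had signals of 241 in Mili+/- and 196 in Mili-/- (-0.41). Eif6, whose product keeps the large subunit from joining too early, had 382 and 313.5 (-0.39). Eif2d, which encodes a factor that can deliver tRNA without GTP, had 114 and 102 (-0.27). The subunit joining GTPase gene Eif5b stood with most genes at 242 and 239 (-0.13), as did its second probe set (104 and 105, -0.09). Eif1b had 600 and 646 (0.00), and Eif3j1, which encodes the loosely bound eIF3 subunit, had 325 and 349 (0.00). Both were thus higher than the median gene by 0.12.

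The eIF1A genes depended on the probe set. Eif1a had 165 and 203 on its brightest probe set (0.19), the highest value of any member past the filter, but 82.1 and 69.8 on the second (-0.34). Eif1ax, the X-linked gene of the same factor, had 424 and 357 on its brightest probe set (-0.36) and 91.1 and 106 on the second (0.11). Each gene thus had 1 probe set on either side of 0, and no direction can be given for either. The 2 genes encode near-identical proteins, and whether their probe sets also read each other's transcript was not tested.

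Genes of eIF2, of its exchange factor eIF2B and Eif2a ranged from -0.78 to -0.07. The group of 8 had a median of -0.36, or -0.35 over 7 genes without Eif2a. The full group lay 0.23 below the median of all genes with median centring, and by construction also as deposited. It also lay 0.23 below that median after quantile normalization and after loess. With the filter at the 75th percentile it held 4 genes, whose median of -0.08 lay above that of all such genes (-0.13). Eif2b5, the catalytic epsilon subunit of eIF2B, had 230 and 182 (-0.45), and its second probe set had 89.7 and 76.6 (-0.34). Eif2b2, the beta subunit, had 115 and 94.9 (-0.39). By contrast Eif2b1, the alpha subunit, had 199 and 204 (-0.07), and Eif2b4, the delta subunit, had 184 and 187 (-0.09), on a probe set with a suffix for sequence shared between transcripts. Eif2b5 and Eif2b2 thus stood apart from Eif2b1 by 0.37 and 0.32. An SD of 0.31 for a single probe set gives 0.44 for a gap between a pair of them, and both gaps were smaller. Eif2b5 and Eif2b1 both reached the 75th percentile, where the SD of a gap was 0.30, less than their gap of 0.37.

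Of eIF2 itself, the beta subunit gene Eif2s2 had 46.7 and 39.2 (-0.36). The gamma subunit gene Eif2s3x had 379 and 388 (-0.08), with the pyrimidine start shown above. Its Y-linked copy Eif2s3y, a gene known to be needed for the proliferation of spermatogonia, had 106 and 89.6 (-0.35). The gap of 0.27 between Eif2s3y and Eif2s3x was less than that SD of 0.44. The Eif2s3y probe set carries a suffix that marks sequence shared within a family, so it may read both copies. Eif2a had 117 and 73.8 (-0.78, 1.71-fold lower), the lowest of the members that reached the filter on both arrays, at percentile 1.64 of all genes past the filter. Despite its symbol it encodes a separate factor that binds the initiator tRNA and is no subunit of eIF2. It was read by 1 probe set, and its value lay 0.65 below the median of all genes.

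The eIF2 kinases respond to different stresses and were mostly dim. Eif2ak3 (PERK, the kinase of the unfolded protein response) had 38.8 and 24.1 (-0.80, 1.74-fold lower), at percentile 1.46 of all genes past the filter, and reached the filter on the Mili+/- array only. Eif2ak4 (GCN2, the sensor of missing amino acids) had 37.6 and 25.1 (-0.69) and was not compared. Eif2ak2 (PKR, activated by double-stranded RNA) had 13.7 and 16.5, also below the filter. Eif2ak1 (HRI, the haem-regulated kinase abundant in erythroid cells) had 129 and 133 (-0.06).

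Among 8 eIF3 subunits past the filter the median was -0.25, or 0.13 below all genes. With the mean over probe sets it was -0.09, above that of all genes (-0.11). Eif3m, which encodes a subunit of the eIF3 core, had the lowest value at 759 and 566 (-0.53, 1.45-fold lower). Eif3a, the large scaffold subunit, had 177.5 and 137 (-0.48). Eif3e had 211 and 177 (-0.37), but averaging its probe sets gave 0.01, since its dim second probe set had 15.7 and 22.3. Eif3d, a subunit that can itself contact the cap, had 882 and 748 (-0.35). The other 4 lay close to the median gene. Eif3b had 603 and 582 (-0.16), Eif3c 1070 and 1067 (-0.11), Eif3k 778 and 805.5 (-0.06) and Eif3l 955 and 998 (-0.05). The signal of the ninth measured subunit gene, Eif3f, was too dim to compare at 11.4 and 26.1. The lowest and the highest of the 8 were 0.49 apart. The SD of a gap between single probe sets was 0.44, or 0.30 for genes that reached the 75th percentile, as these 8 did. That SD describes a single pair, not the range over 8 genes.

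**Figure D3:**
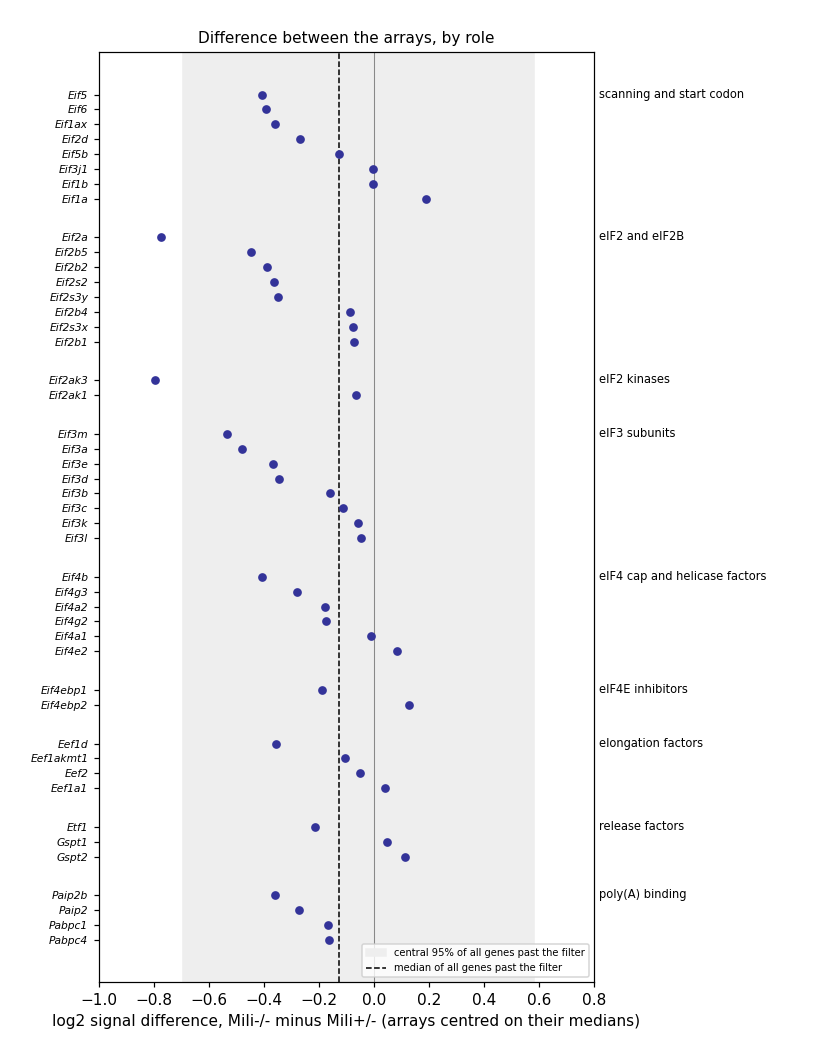
Log2 difference (Mili-/- minus Mili+/-, arrays centred on their medians) of each translation factor past the filter, grouped by role; the dashed line is the median of all genes past the filter (-0.13) and the grey band their central 95% range (-0.69 to 0.58). Eif2a (-0.78) and Eif2ak3 (-0.80) lie outside the band, and all other members within it.

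The eIF4 cap and helicase factors lay near the median of all genes, with a group median of -0.18 over 6 members. Eif4b, which stimulates the helicase, was the lowest at 301 and 244 (-0.41), and a second probe set of relaxed probe selection had 127 and 88.5 (-0.63). Both of these Eif4b probe sets carry a suffix. Its probe sets without a suffix were dim, at 1.6 and 4.8 and at 3.6 and 2.2. Averaging all Eif4b probe sets gave -0.24. The helicase genes Eif4a2 (546 and 521, -0.18) and Eif4a1 (164 and 175.5, -0.01) differed by 0.17. Eif4a1 was read only by a probe set of relaxed probe selection. Of the scaffolds, Eif4g3 had 96.8 and 86.0 (-0.28) and Eif4g2, which encodes the cap-independent relative DAP5, had 76.7 and 73.3 (-0.18). Eif4e2, a relative of the cap-binding protein that often represses, had 51.1 and 58.4 (0.08), on a probe set with the suffix for sequence shared within a family. Its second probe set, without a suffix, was dim at 26.9 and 40.3, and averaging its probe sets gave 0.28. The cap-binding protein gene Eif4e itself (16.4 and 13.6) and Eif4h (4.0 and 2.8) were below the filter. Eif4b was the sole gene of this group that had a second probe set past the filter.

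The eIF4E inhibitor Eif4ebp2 gave the widest disagreement. Its brightest probe set had 365 and 430 (0.13), while a second one past the filter had 122 and 53.8 (-1.29). The gap of 1.42 compares with an SD of 0.44 for a gap between a pair of probe sets of genes past the filter. Around the gene mean, single probe sets had an SD of 0.38 over the 7 members that had several past the filter. That value includes Eif4ebp2, and over the other 6 members the SD was 0.19. No direction can be given for Eif4ebp2. Which transcripts each probe set reads was not tested. Eif4ebp1 stood near the median gene at 122 and 115 (-0.19). Eif4enif1, the eIF4E transporter gene, was dim at 9.0 and 1.8.

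**Figure D4:**
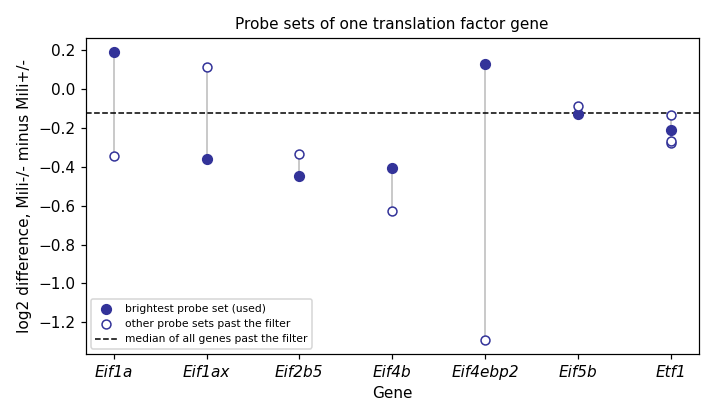
Log2 differences (Mili-/- minus Mili+/-) of all probe sets past the filter for the 7 translation factor genes that have more than 1; filled points are the brightest probe set of each gene and open points the others, with the median of all genes dashed. Probe sets of Etf1, Eif5b, Eif2b5 and Eif4b lie close together, those of Eif1a and Eif1ax span 0, and those of Eif4ebp2 lie 1.42 apart.

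Elongation factors lay close to the median of all genes. Eef1a1, which delivers aminoacyl-tRNA, had 3283 and 3645 (0.04). Eef2, the translocase, had 1454 and 1514 (-0.05). Eef1d, a subunit of the exchange factor for eEF1A, was lower at 446.5 and 376 (-0.36). Eef1akmt1, a lysine methyltransferase of eEF1A that the symbol rule takes in, had 70.7 and 70.9 (-0.11). The group median lay above that of all genes by 0.05, and by less than 0.01 after quantile normalization and after loess. Eef1a2, the muscle and neuron form (22.7 and 30.0), Eef1b2 (15.8 and 21.2), Eef1g (0.8 and 0.3), the kinase gene Eef2k (24.4 and 21.8) and Eif5a (13.0 and 19.4) did not reach the filter and were not compared.

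Release factors stood on both sides of the median gene. Gspt1 had 377 and 421 (0.05), and its relative Gspt2 had 165 and 192 (0.11). Etf1 had 408 and 379.5 (-0.21) on its brightest probe set. Its 4 probe sets past the filter lay between -0.28 and -0.13, so all were below 0, and the highest stood near the median of all genes. They were read on the same arrays and are not replicates of the difference. Gspt1 and Gspt2 were above the median of all genes by 0.17 and 0.24, less than the SD of 0.31 between probe sets. Both reached the 75th percentile, where that SD was 0.21, which the value of Gspt2 exceeds. The differences of all genes at that brightness had an SD of 0.25, and Gspt2 stood at percentile 80.5 of genes past the filter.

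Genes for poly(A) binding proteins and their partners were all below the median of all genes, by small amounts. Pabpc1, the main cytoplasmic poly(A) binding protein gene, had 1496 and 1439 (-0.17), and Pabpc4 had 246 and 237 (-0.16). The repressor genes Paip2 (501 and 447, -0.27) and Paip2b (399 and 336, -0.36), whose products displace the poly(A) binding protein, stood apart from Pabpc1 by 0.11 and 0.19. Pabpc2 was below the filter at 20.8 and 27.2.

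**Figure D5:**
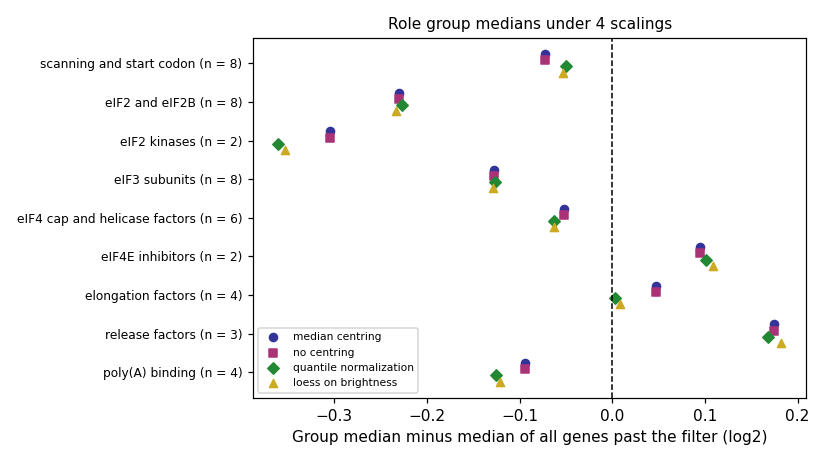
Median log2 difference of each role group minus the median of all genes past the filter, under 4 scalings (median centring, values as deposited, quantile, loess); n is the number of members past the filter. The groups of scanning and start codon, eIF2 and eIF2B, eIF2 kinases, eIF3, eIF4 and poly(A) binding lie below 0 under these 4 scalings. The eIF4E inhibitors, elongation factors and release factors lie above 0, on 2, 4 and 3 genes. Filter and probe sets are as above. Median centring and values as deposited give the same points by construction.

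Other genes of the translation pathway were read from lists of general knowledge. Their counts past 1.5-fold are to be read against the 2.47% of all genes that were higher and the 5.04% that were lower. Of 12 mTORC1 and translation signalling genes past the filter, none was at least 1.5-fold higher and 1, Rps6kb2, was at least 1.5-fold lower. That gene was also at least 2-fold lower, as were 0.53% of all genes past the filter. Rps6kb2, a ribosomal S6 kinase gene, reached the filter on the Mili+/- array only and so had to be lower in Mili-/-. It had 47.1 and 14.7 (-1.79), or -1.04 when signals were floored at the 40th percentile. The eIF4E kinase gene Mknk1 had 83.4 and 67.3 (-0.42), the mTORC1 inhibitor gene Tsc1 had 87.6 and 72.4 (-0.38), and Mlst8, a subunit gene of mTORC1, had 187 and 261 (0.37). Mtor itself had 167 and 156 (-0.21). The list's median was -0.18, as for the translation factors.

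Genes of the integrated stress response, which acts downstream of the eIF2 kinases, had a median of -0.10 over 11 members past the filter, with 1 of them 1.5-fold higher and none 1.5-fold lower. That gene was Ddit3, with 26.1 and 44.8 (0.67), which reached the filter on the Mili-/- array only. Atf4, whose translation rises when eIF2 is phosphorylated, had 222 and 263 (0.14), and its target Asns had 585 and 591 (-0.10). Ppp1r15a and Ppp1r15b, which encode the subunits that direct a phosphatase to eIF2, had 93.9 and 69.6 (-0.54) and 220 and 170.5 (-0.48). Ndrg1 followed with 223 and 211 (-0.19). These genes thus lay on both sides of the median gene.

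Of 21 measured genes of cytoplasmic aminoacyl-tRNA synthetases, which charge tRNAs with amino acids, and their scaffold, 20 passed the filter. Their median was -0.18, none reached 1.5-fold, and 12 of the 20 lay below the median of all genes. The values ranged from -0.47 to 0.16, with 17 below 0 and 3 above it. The seryl-tRNA synthetase gene Sars had 111 and 86.6 (-0.47), and Farsb, a subunit gene of the phenylalanyl enzyme, had 152 and 120 (-0.45). The scaffold gene Aimp2 had 370 and 303 (-0.40), and Eprs, which encodes the glutamyl-prolyl enzyme, had 199 and 167 (-0.36). Of the mitochondrial factors, 4 passed the filter and none reached 1.5-fold. Tufm had 314 and 242 (-0.49, or -0.05 when its probe sets were averaged), Tsfm 88.9 and 104 (0.12), Gfm1 65.7 and 66.9 (-0.08) and Mtif2 158 and 170 (-0.01). Of 5 rescue, recycling and reinitiation genes none reached 1.5-fold. The ribosome rescue gene Pelo had 53.6 and 79.3 (0.46, or 0.20 when probe sets that carry a suffix were left out). Its partner Hbs1l had 225 and 200 (-0.28), and Gle1 had 131 and 109 (-0.37). Ddx3x had 320 and 295 (-0.23, or -0.50 when its probe sets were averaged).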

How the data were processed

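The authors deposited 1 table of linear signal intensities, per probe set, for 2 arrays. Neither the scaling tool nor any background correction is stated in the sources used here. Trimmed by 2% at either end, the mean signal was 100.05 on both arrays, so the arrays appear scaled to a common level. Control probe sets (66 of 12488) were left out. Of the others, 10833 had 1 gene symbol, 396 several and 1193 none here. Entrez IDs gave current symbols for 10817 of them (RefSeq table, GRCm38.p6), and list symbols were matched to its older ones.

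Signals were floored at the 20th percentile (6.3 and 7.0), converted to log2 and centred per array at the median, which removed 0.11. Named members were the 12 highest and 12 lowest past the filter, the brightest of each role group, and those with probe sets over 0.5 apart. Other members were added so that each is accounted for, and from each pathway list up to 4 genes, with Mtor, Atf4 and Asns added after their values were seen. Members, lists and thresholds were chosen with earlier results of these data known. Scaling, floor, filter, probe set choice and symbols were varied. The code was tested on simulated data. Python 3.11.15, NumPy 2.4.6, pandas 2.3.3 and statsmodels 0.14.6 were used. The number of arrays limits the precision.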

Additional observations from a re-analysis of the deposited data

How the results depend on the processing

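The median of the translation factors stayed below 0 under the 11 alternatives, between -0.18 and -0.06, and below the median of all genes by 0.01 to 0.11. The smallest gap came with the filter at the 75th percentile, where the group of eIF2 and eIF2B lay above the median of all genes by 0.05. With the mean over probe sets eIF3 lay above it by 0.02. Without the brightness filter, 1 member was 1.5-fold and 2-fold higher (Eif3f) and 3 were 1.5-fold lower. The count of 2 members at least 1.5-fold lower was 1 where both arrays had to reach the median (Eif2a) and 0 at a 75th percentile filter, which Eif2a and Eif2ak3 do not reach. Under both of these the eIF2 kinase median rested on Eif2ak1 alone (-0.065). With the mean over probe sets, Eif4ebp2 stood at -0.37. Scaling moved the split of all genes past 1.5-fold from 126 higher and 257 lower to 197 against 124 with deposited values. Quantile normalization gave 182 and 146, and loess 184 and 138. Eif2a and Eif2ak3 remained the members past 1.5-fold under all of these. Dim signals carry no detection call, which limits what can be said of the 12 members below the filter.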
